A study of Sus scrofa with 12 samples.

Results

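The 10 genes described here set, oppose or report the brake on the cell cycle in arterial endothelial cells (ECs). They are the CDK inhibitors CDKN1A, CDKN1B, CDKN1C and CDKN2B, the D-type cyclins CCND1, CCND2 and CCND3, the p53 antagonist MDM2, and the stress genes GADD45A and GADD45B. A row of the count table was taken when its pig Ensembl identifier mapped to one of these symbols, which gave 10 of 21153 rows, with every gene found. RNA was sequenced from 12 cultures of primary porcine ECs, called aortic in the sample labels and coronary in the study's methods, from 3 pigs (donors 1 to 3). The cells were exposed for 48 h to laminar flow at a low wall shear stress (WSS) of 2 dyne/cm2, a physiological WSS of 30 dyne/cm2 or a supra-high WSS of 80 dyne/cm2, on gelatin, in medium with fetal calf serum and heparin. Each donor gave 1 culture at 2, 1 at 80 and 1 in each of 2 sets at 30 dyne/cm2, set 1 (labelled 30.1dyn) and set 2 (labelled 30.2dyn). The question was how either aneurysmal WSS changes these genes relative to physiological WSS. The culture at 2 was compared with set 1 and that at 80 with set 2 of the same donor, a pairing that follows the numbering of the cultures in the labels and is not stated in them. According to the design text, the cultures at 2 and at 80 dyne/cm2 grew in different flow slides at different seeding densities, each with a physiological control in its own slide, so the sets at 30 dyne/cm2 also differ in slide. The study's methods name 1 slide type for all cultures.

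D-type cyclins bind CDK4 and CDK6, and the complex phosphorylates the retinoblastoma protein so that a cell can pass from G1 into S phase. The CIP/KIP inhibitors (CDKN1A or p21, CDKN1B or p27, CDKN1C or p57) and the INK4 inhibitors (CDKN2B or p15 among them) oppose these kinases. CDKN1A, MDM2 and GADD45A are transcriptional targets of p53, and MDM2 in turn marks p53 for degradation. In arteries, ECs under steady laminar flow are largely quiescent, and KLF2 and KLF4 are transcription factors known to rise with such flow.

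Total counts lay between 29606854 and 41058902 per library. The endothelial markers stood far above the others: the summed level of the 8 of 10 endothelial markers found in the table was 4732 to 8396 CPM (counts scaled to library size) over the 12 libraries. The smooth muscle markers summed to between 49.0 and 86.5 CPM, with DES at 0, and the leukocyte markers to between 8.28 and 28.5 CPM. The endothelial sum moved with the conditions, from 4732 to 5676 CPM at 2 dyne/cm2 through 6814 to 7838 CPM in set 1 and 6491 to 7479 CPM in set 2 to 8306 to 8396 CPM at 80 dyne/cm2. All 8 were lower at 2 and 4 of them passed. The 6 fibroblast markers moved too. Their sum, mostly COL3A1, was 366.1 to 1305 CPM at 2 dyne/cm2, 163.1 to 301.8 CPM in set 1, 127.6 to 716.5 CPM in set 2 and 46.3 to 172.4 CPM at 80 dyne/cm2, and the part of either marker sum in the results below was not tested. In RNA from whole cultures, a change in the share of cells that express a gene and a change in the RNA per cell cannot be told apart. Levels below are CPM scaled by TMM normalisation, and they compare libraries for 1 gene and not 1 gene with another, since gene lengths were not used here.

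At low WSS against set 1, the inhibitor CDKN1B and the stress gene GADD45B rose by more than 2-fold. MDM2 rose by less, and CCND1, CCND2 and CCND3 all fell by less than 2-fold. Against set 2, CDKN1B and GADD45B rose by less than 2-fold, and CCND1 and CCND2 did not pass the test. CDKN1A and CDKN2B did not pass the test. At supra-high WSS against set 2 the changes were small, CDKN1A up and CDKN1B down, both under 2-fold. Neither of these passed against set 1, where only 26 of 11128 genes did. A gene was called changed at a fold change of at least 2 with an adjusted p under 0.05 in edgeR's quasi-likelihood test with a donor term and Benjamini-Hochberg adjustment over all genes tested, which is what "edgeR adjusted p" stands for here. "Passed" refers to the adjusted p alone. At 2 dyne/cm2, 2 of the 9 genes tested were called, both upward, against 9.6% of all 11226 genes tested. At the adjusted p alone, 6 of 9 passed against a background of 25.8%, 3 upward (background 13.4%) and 3 downward (12.4%). At 80 dyne/cm2, 0 of 10 were called (background 2.2%), and 2 of 10 passed at the adjusted p alone against 8.4% of all genes, 1 upward (4.36%) and 1 downward (4.04%). At an unadjusted p under 0.05, 3 of the 10 counted at 80 dyne/cm2, against 26.1% of all genes, and DESeq2 also called 0 of them.

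**Figure D1:**
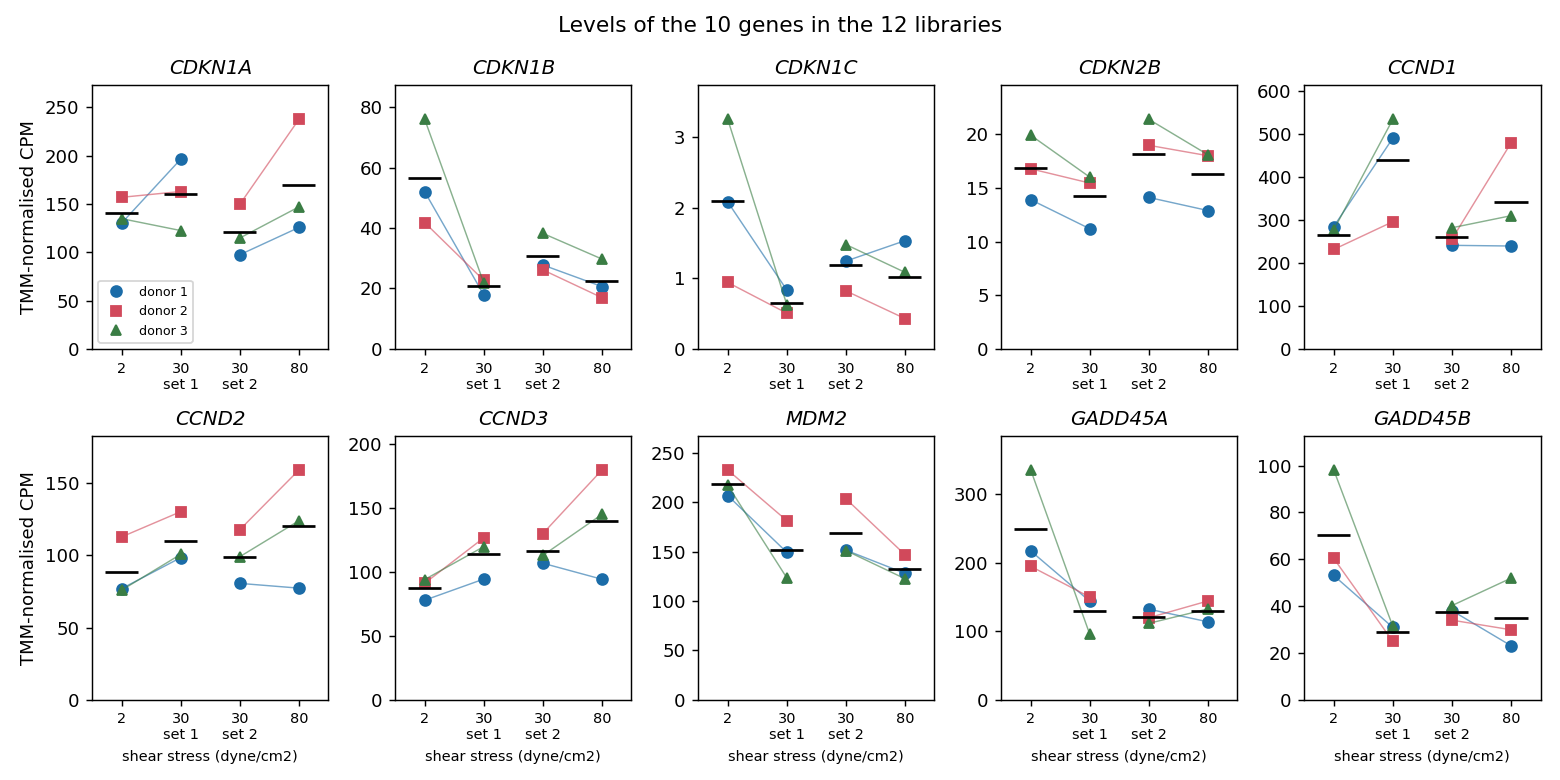
Level of each gene (TMM-normalised CPM, linear axes starting at 0) in the 12 libraries by WSS in dyne/cm2. Points are libraries, with colour and shape giving the donor, black bars are group means (n = 3 each), and lines join the cultures of 1 donor that were compared. CDKN1B, MDM2, GADD45A and GADD45B sit higher in every culture at 2 dyne/cm2 than in any other culture.

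Among the CIP/KIP inhibitors, CDKN1B (ENSSSCG00000037144, chr5:59731224-59735831 in the RefSeq annotation of Sscrofa11.1), which holds cyclin-CDK complexes inactive in quiescent cells, changed most. Its level at 2 dyne/cm2 was 52.0, 41.8 and 76.0 CPM in donors 1, 2 and 3, against 17.9, 22.7 and 21.8 CPM in set 1. The 3 cultures at 2 dyne/cm2 lay above all 9 others, and the rise was smallest in donor 2. The fitted log2 fold change was 1.41 ± 0.19 (SE, 3 donors), a 2.66-fold rise (edgeR adjusted p = 0.0112), with a rise of 1.84-fold to 3.48-fold in single donors. In set 2 the level of CDKN1B was 27.8, 26.2 and 38.2 CPM, and at 80 dyne/cm2 it was 20.6, 17.0 and 29.8 CPM. It was thus lower at 80 than in set 2 in each donor, although the groups overlapped. The log2 fold change at 80 was -0.46 ± 0.10 (edgeR adjusted p = 0.0311). The fibroblast marker sum moved the same way in all 3 donors in both comparisons. At 2 dyne/cm2 the sum rose 4.32-, 2.24- and 4.15-fold in donors 1, 2 and 3, least in donor 2 as CDKN1B did. At 80 it was 0.131, 0.363 and 0.694 of set 2, lowest in donor 1, whereas CDKN1B fell most in donor 2. From set 1 to set 2 CDKN1B was higher in all 3 donors. The sum was higher in donor 1 (301.8 to 716.5 CPM) and lower in donors 2 (163.1 to 127.6 CPM) and 3 (259.9 to 248.3 CPM). Its part in the result was not tested. Without any 1 of the donors, CDKN1B was still called at 2 dyne/cm2, with log2 fold changes of 1.22 to 1.67. At 80 dyne/cm2 it passed without donor 1 but not without donor 2 (edgeR adjusted p = 0.116) or donor 3 (0.144). Of all genes, 2042, 343 and 183 passed without donors 1, 2 and 3, against 940 with all 3.

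CDKN1A (ENSSSCG00000001565, chr7:32354776-32363771), the CDK inhibitor best known as a p53 target, behaved differently. It measured 125.6, 237.4 and 146.9 CPM in donors 1, 2 and 3 at 80 dyne/cm2, and in set 2 97.4, 149.6 and 114.7 CPM. Every donor was higher at 80, by 1.28-fold to 1.59-fold, while donor 2 was the highest of its group in both conditions and the groups overlapped. The log2 fold change was 0.48 ± 0.10 (edgeR adjusted p = 0.0271). It did not pass without donor 2 (0.36, edgeR adjusted p = 0.0995) or donor 3 (0.53, edgeR adjusted p = 0.141). In those fits 343 and 183 genes passed, against 940 with all 3 donors. At 2 dyne/cm2 CDKN1A measured 130.2, 156.8 and 134.7 CPM, against 196.3, 162.8 and 122.4 CPM in set 1. The donors disagreed, with 2 lower and 1 higher, and the log2 fold change of -0.17 ± 0.16 did not pass (edgeR adjusted p = 0.458).

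CDKN1C (ENSSSCG00000040461, chr2:2019391-2022092), an imprinted inhibitor in other mammals, was barely expressed, with 14 to 97 reads per library. It measured 2.08, 0.94 and 3.25 CPM at 2 dyne/cm2 in donors 1, 2 and 3, and 0.83, 0.51 and 0.63 CPM in set 1. All 3 donors were higher at 2, and donor 3 was furthest apart. The gene had fewer than 3 libraries at 1 CPM in this comparison and so was not tested. With dispersions from all 12 libraries, where it was kept, the log2 fold change was 1.58 ± 0.32 (edgeR adjusted p = 0.00414), but against set 2 it was 0.74 ± 0.24 and did not pass (edgeR adjusted p = 0.0862). Its level ranged from 0.43 to 1.53 CPM at 80 dyne/cm2 and in set 2 from 0.82 to 1.48 CPM, a log2 difference of -0.25 ± 0.30 that did not pass (edgeR adjusted p = 0.625).

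CDKN2B (ENSSSCG00000034120, chr1:200666250-200770880), which binds CDK4 and CDK6 directly and is induced by TGF-beta, varied more among donors than among conditions. Its level ranged from 11.2 to 21.4 CPM over the 12 libraries, and donor 1 was the lowest in every group. The donor accounted for 74.0% and the condition for 23.2% of the variance of its log2 CPM. Neither the difference at 2 (log2 0.25 ± 0.10, edgeR adjusted p = 0.129) nor that at 80 dyne/cm2 (log2 -0.14 ± 0.10, edgeR adjusted p = 0.415) passed, although all 3 donors were higher at 2 and all 3 lower at 80. For CDKN2B, CCND2 and CCND3 the RefSeq span overlaps another gene, and since the strand setting of the counting is not given in the sources used here, reads of the overlapping genes cannot be told apart.

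The D-type cyclins fell against set 1 at low WSS, but against set 2 only CCND3 did. CCND1 (ENSSSCG00000037900, chr2:3621242-3633380), the mitogen-induced partner of CDK4, measured 284.4, 231.2 and 276.9 CPM at 2 dyne/cm2 in donors 1, 2 and 3, against 489.8, 295.6 and 533.4 CPM in set 1. The groups did not overlap, and donor 2, lowest in both, changed least. The log2 fold change was -0.69 ± 0.14 (edgeR adjusted p = 0.0278). Under supra-high WSS CCND1 measured 239.1, 478.4 and 309.5 CPM, against 240.7, 254.9 and 281.5 CPM in set 2. Most of that difference lay in donor 2, which rose 1.88-fold while donor 1 was level, and the log2 fold change of 0.36 ± 0.17 did not pass (edgeR adjusted p = 0.241).

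CCND3 (ENSSSCG00000032284, chr7:37087336-37182462), the D-type cyclin found most widely in tissues, measured 77.7, 91.0 and 93.9 CPM at 2 dyne/cm2 and 94.2, 126.5 and 119.6 CPM in set 1. Its groups did not overlap, although the highest value at 2 came close to the lowest in set 1, and the log2 fold change was -0.36 ± 0.08 (edgeR adjusted p = 0.0327). CCND2 (ENSSSCG00000038694, chr5:66092483-66114575) fell by 0.32 ± 0.08 on the log2 scale (edgeR adjusted p = 0.0484), in 3 of 3 donors, within overlapping ranges of 76.0 to 112.9 CPM at 2 and 98.5 to 130.4 CPM in set 1. Both were higher at 80 dyne/cm2 than in set 2 in donors 2 and 3 and lower in donor 1. Their log2 fold changes at 80, 0.25 ± 0.11 for CCND2 (edgeR adjusted p = 0.214) and 0.23 ± 0.13 for CCND3 (edgeR adjusted p = 0.313), did not pass. The outcome depended on the donors: without donor 1, CCND1, CCND2 and CCND3 were all higher at 80, with log2 fold changes of 0.53, 0.39 and 0.42 (edgeR adjusted p = 0.000533, 0.0122 and 0.00515), in a fit where 18.6% of all genes passed. Without donor 2 the log2 fold changes were 0.065, 0.134 and 0.093, and none of the 3 passed, in a fit where 343 of 10889 genes did. With 1 donor left out, the falls at 2 dyne/cm2 were of similar size, from -0.56 to -0.86 for CCND1, -0.27 to -0.38 for CCND2 and -0.31 to -0.41 for CCND3 on the log2 scale. With the remaining 2 donors, however, neither CCND2 nor CCND3 passed, and CCND1 passed only without donor 2 (edgeR adjusted p = 0.0309). Passes were fewer over all genes too: 1389, 1799 and 1494 without donors 1, 2 and 3, against 2895 with all 3.

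MDM2 (ENSSSCG00000000488, chr5:33105717-33137602), the ubiquitin ligase of p53 and itself a p53 target, was the only gene of the 10 whose groups were apart in both comparisons. It measured 206.7, 232.6 and 217.1 CPM at 2 dyne/cm2 in donors 1, 2 and 3, against 149.2, 181.3 and 123.3 CPM in set 1. All cultures at 2 dyne/cm2 lay above all others. The log2 fold change was 0.55 ± 0.11, a rise of 1.28-fold to 1.76-fold in single donors (edgeR adjusted p = 0.0277). It passed without donor 2 (edgeR adjusted p = 0.0498) but not without donor 1 (0.0779) or donor 3 (0.0534). Of all genes, 1389, 1799 and 1494 passed without donors 1, 2 and 3, against 2895 with all 3. At 80 dyne/cm2 it measured 127.9, 146.8 and 122.5 CPM, and in set 2 151.4, 203.5 and 151.0 CPM. The cultures at 80 were lower in each donor, and the log2 fold change of -0.33 ± 0.09 narrowly missed the threshold (edgeR adjusted p = 0.0603), while DESeq2 gave an adjusted p of 0.0328. Groups that did not overlap were common: 37.9% of all genes tested at 2 and 14.9% at 80 dyne/cm2 had groups that did not overlap. At 2 dyne/cm2 this held for CDKN1B, CCND1, CCND3, MDM2, GADD45A and GADD45B, 6 of the 9 tested, and at 80 for 1 of 10.

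The GADD45 genes encode small proteins of the response to growth arrest and DNA damage that bind CDK1, CDKN1A and the stress kinase MAP3K4. GADD45B (ENSSSCG00000022689, chr2:76107928-76111458), also induced by NF-kappaB and TGF-beta, measured 53.1, 60.3 and 98.2 CPM at 2 dyne/cm2 in donors 1, 2 and 3, against 30.8, 24.9 and 31.3 CPM in set 1. All 3 donors were higher at 2, donor 3 most. The log2 fold change was 1.24 ± 0.18, or 2.36-fold (edgeR adjusted p = 0.0126), and it was called without any 1 donor, with log2 fold changes of 1.04 to 1.47. Under supra-high WSS GADD45B measured 23.0, 29.9 and 51.9 CPM, against 38.1, 34.0 and 40.2 CPM in set 2. The donors disagreed, with 2 lower and 1 higher, and the log2 fold change was -0.16 ± 0.19 (edgeR adjusted p = 0.617).

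GADD45A (ENSSSCG00000037066, chr6:144940702-144944089), the p53-responsive member of the family, measured 217.2, 194.7 and 335.5 CPM at 2 dyne/cm2 and 143.6, 149.8 and 95.2 CPM in set 1. All 3 donors were higher at 2 without overlap, but by 1.30-fold to 3.52-fold, with donor 3 both highest at 2 and lowest in set 1. With that spread the log2 fold change of 0.93 ± 0.30 did not pass (edgeR adjusted p = 0.0779). Without donor 3 it was smaller, 0.50 ± 0.10, and passed (edgeR adjusted p = 0.0487). It did not pass without donor 1 (edgeR adjusted p = 0.0744) or donor 2 (0.0809). GADD45A did pass at 2 dyne/cm2 in DESeq2 (adjusted p = 0.00446). In edgeR it passed with dispersions from all 12 libraries (adjusted p = 0.0109) and with both sets as control (0.00779). GADD45A ranged from 113.6 to 144.1 CPM at 80 dyne/cm2 and in set 2 from 111.4 to 132.1 CPM, with a log2 difference of 0.11 ± 0.12 (edgeR adjusted p = 0.575).

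**Figure D2:**
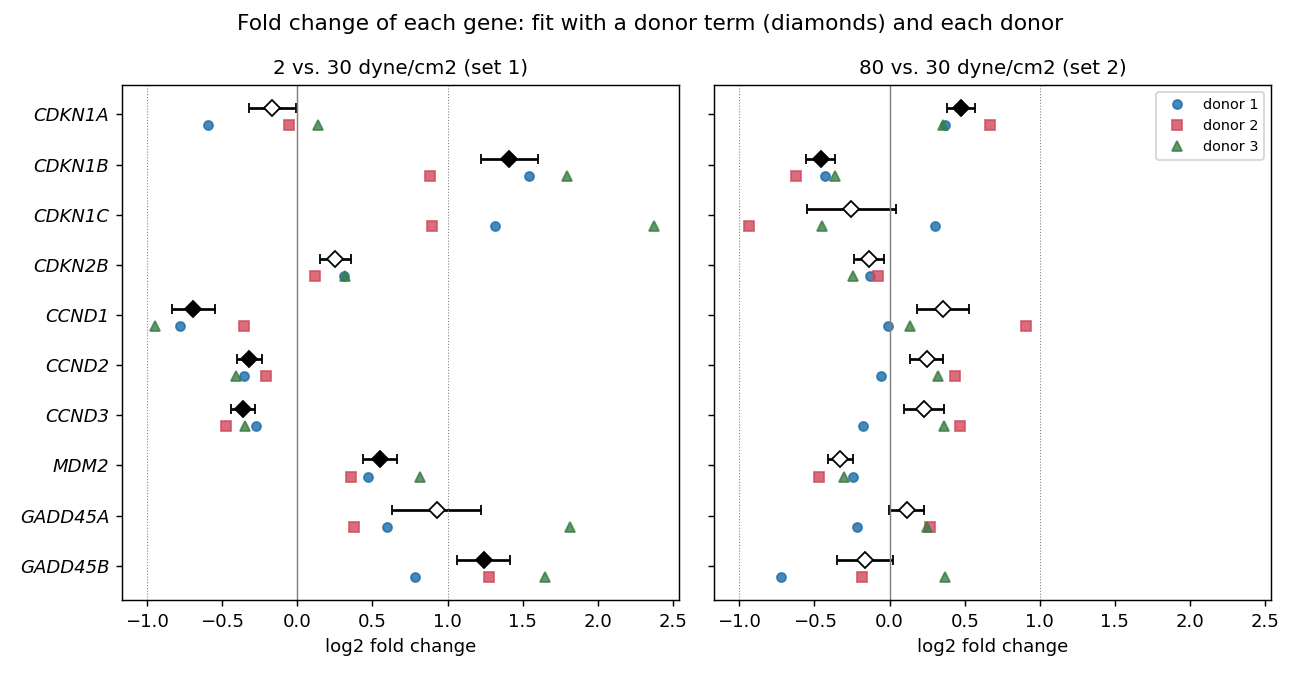
Log2 fold change of each gene at 2 vs. 30 dyne/cm2 (set 1) and at 80 vs. 30 dyne/cm2 (set 2). Diamonds with bars are the fit with a donor term ± SE, filled where the edgeR adjusted p was under 0.05, coloured points are the 3 donors, and dotted lines mark a 2-fold change. CDKN1B and GADD45B are the filled diamonds past 2-fold at 2 dyne/cm2, and no diamond passes 2-fold at 80. CDKN1C was not tested at 2 dyne/cm2.

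Donors and conditions weighed differently on each gene. Over the 12 libraries, the condition took 79.7% of the variance of log2 CPM for CDKN1B, 74.5% for GADD45A, 72.4% for MDM2 and 68.2% for GADD45B. For CCND2, as for CDKN2B, the donor took more, 63.0% against 21.8%. CDKN1A divided almost evenly, with 33.4% for the donor, 29.6% for the condition and 36.9% for neither.

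The response at low WSS also differed from the response at supra-high WSS for most of the 10 genes. This difference, the log2 fold change at 2 minus that at 80, passed for 8 of 10 genes, against 37.1% of the 11568 genes tested. In 5 it was positive (background 19.3%), from 0.40 ± 0.12 for CDKN2B through MDM2 and GADD45B to 1.85 ± 0.45 for CDKN1C and 1.86 ± 0.22 for CDKN1B (edgeR adjusted p = 0.000318 for the latter). In 3, the D-type cyclins, it was negative (background 17.9%), from -0.57 ± 0.18 for CCND2 to -1.13 ± 0.38 for CCND1. All 3 donors showed the sign of each of these differences. CDKN1A (-0.67 ± 0.28, edgeR adjusted p = 0.0833) and GADD45A (0.84 ± 0.32, edgeR adjusted p = 0.0681) did not pass. In DESeq2 all 10 genes passed for this difference, 6 positive and 4 negative, against 39.3% of all genes. Both responses enter this difference with their own control, so it also holds any difference between the sets at 30 dyne/cm2.

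Those sets were not alike for every gene. Between set 2 and set 1, 0 of 9 genes tested passed in the edgeR test, against 0.00896% of 11163 genes called and 0.0179% at the adjusted p alone, but 4 of 9 had an unadjusted p under 0.05 (19.2% of all genes) and 3 passed in DESeq2 (4.26% of all genes). CCND1 was lower in set 2 in each donor without overlap (259.0 ± 20.7 against 439.6 ± 126.6 CPM, mean ± SD, n = 3; log2 difference -0.72 ± 0.16, edgeR adjusted p = 0.135, DESeq2 adjusted p = 0.000862). CDKN1B was higher in set 2 (30.7 ± 6.56 against 20.8 ± 2.57 CPM; log2 difference 0.56 ± 0.13, edgeR adjusted p = 0.135, DESeq2 adjusted p = 0.0187), and so was GADD45B (37.4 ± 3.16 against 29.0 ± 3.60 CPM; log2 difference 0.38 ± 0.07, edgeR adjusted p = 0.110, DESeq2 adjusted p = 0.0396). Slide type, seeding density and set cannot be told apart here.

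The calls therefore depended on the control. Against set 2, the rise of CDKN1B at 2 dyne/cm2 was 0.86 ± 0.08 on the log2 scale (edgeR adjusted p = 0.00661) and that of GADD45B 0.86 ± 0.16 (edgeR adjusted p = 0.0246), so that both passed without reaching 2-fold and 0 of 10 genes were called, against 7.71% of all genes. MDM2 (log2 fold change 0.39, edgeR adjusted p = 0.0361) and CCND3 (-0.41, edgeR adjusted p = 0.0217) also passed against either set, and GADD45A passed against set 2 (1.00, edgeR adjusted p = 0.0271). CCND1 did not: its log2 fold change at 2 dyne/cm2 was 0.02 against set 2 (edgeR adjusted p = 0.884), and that of CCND2 was -0.17 (edgeR adjusted p = 0.226). Against set 1, neither CDKN1A (0.07, edgeR adjusted p = 0.925) nor CDKN1B (0.09, edgeR adjusted p = 0.870) passed at 80 dyne/cm2, and the sign for CDKN1B turned. Few genes of any kind passed in that fit, 26 of 11128. Compared with each other directly, without a control, the cultures at 2 and 80 dyne/cm2 differed in 7 of the 10 genes, against 43.6% of all genes tested. According to the design text these cultures also differed in slide and seeding density, which cannot be told apart from WSS in this contrast. CDKN1B, CDKN1C, MDM2, GADD45A and GADD45B were higher at 2, CDKN1B by 1.33 (edgeR adjusted p = 0.000155) and MDM2 by 0.73 (edgeR adjusted p = 0.000232), and CCND2 and CCND3 were lower, whereas CCND1 (-0.37, edgeR adjusted p = 0.288) did not pass.

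**Figure D3:**
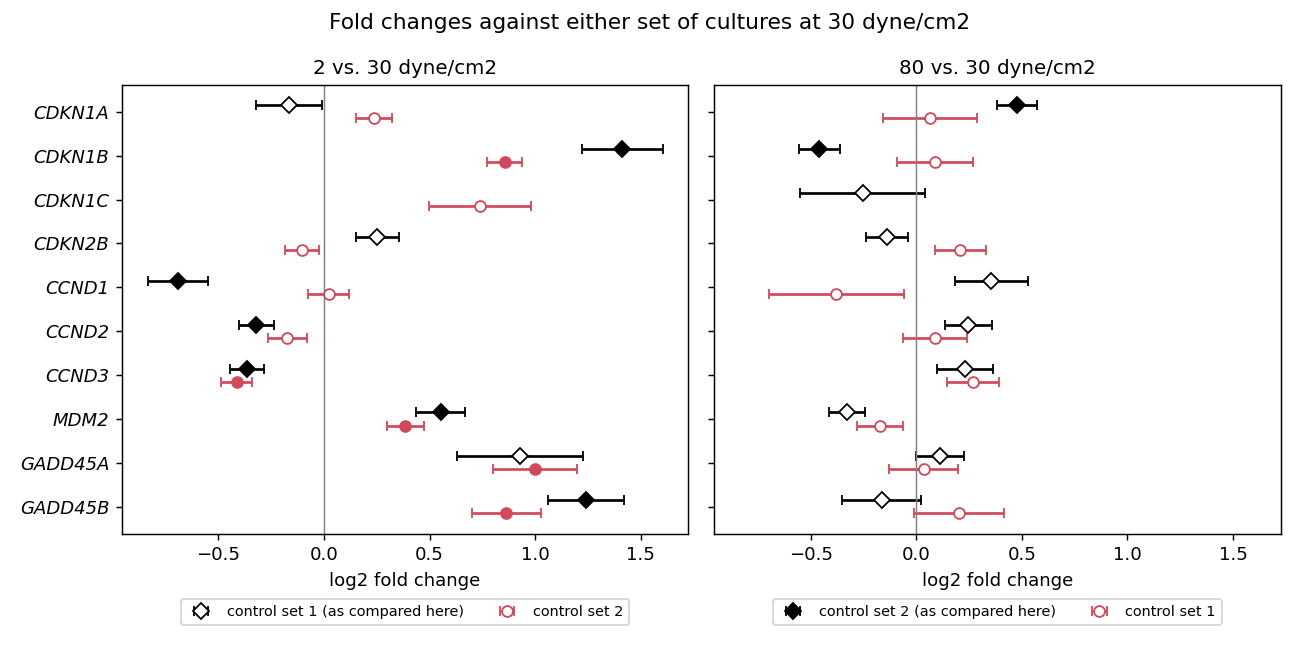
Log2 fold change ± SE of each gene at 2 and at 80 dyne/cm2 against either set at 30 dyne/cm2. Symbols are filled where the edgeR adjusted p was under 0.05. CDKN1B, GADD45B, MDM2 and CCND3 are filled against both sets at 2 dyne/cm2, and CCND1 moves from -0.69 to 0.02. No symbol is filled against set 1 at 80, where 26 of 11128 genes passed.

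Other genes of the same pathways gave the surroundings of these changes. Of all genes tested, 13.4% passed upward and 12.4% downward at 2 dyne/cm2, and 4.36% and 4.04% at 80. Of the partners and substrates, CDK4 and CDK6, the kinases of the D-type cyclins, RB1, their main substrate, and SKP2, the ubiquitin ligase subunit that directs CDKN1B to degradation, did not pass in either comparison, with log2 fold changes between -0.33 and 0.23. Of 14 genes tested among the G1 kinases, E cyclins, pocket proteins and E2F factors, 1 rose and 2 fell at 2 dyne/cm2, and 1 fell at 80. The 2 that fell at 2 were the pocket protein RBL1 (-0.60, edgeR adjusted p = 0.0238) and the E cyclin CCNE2 (-0.51, edgeR adjusted p = 0.0498). RBL2, the pocket protein p130 that holds E2F genes silent in quiescent cells, moved at both. RBL1, CCNE2 and RBL2 were chosen for naming after their values were seen. RBL2 measured 67.8 ± 12.5 CPM at 2 (SD, n = 3), 36.9 ± 4.59 in set 1, 46.7 ± 1.95 in set 2 and 32.3 ± 2.69 CPM at 80 dyne/cm2. Its log2 fold change was 0.87 at 2 (edgeR adjusted p = 0.0171) and -0.52 at 80 (edgeR adjusted p = 0.0140), and like CDKN1B it was highest at 2. Against the other set the rise of RBL2 at 2 was 0.52 (edgeR adjusted p = 0.0263). At 80 its log2 fold change was -0.18 and did not pass (edgeR adjusted p = 0.604), in the fit where 26 of 11128 genes passed. Among the ubiquitin ligases of these proteins 1 of 9 rose and 2 fell at 2, and of the 3 other INK4 inhibitors 1 fell. None of either list passed at 80, with 1 lower ubiquitin ligase and 1 higher INK4 inhibitor at an unadjusted p under 0.05, and 1 and 0 of them passing in DESeq2.

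Of 15 genes listed as marking cycling cells, 9 were matched by symbol and tested. All 9 were lower at 2 dyne/cm2, with a median log2 fold change of -0.67 against 0.003 over all genes. None of these passed against set 1. At an unadjusted p under 0.05, 5 of 9 counted, against 4773 of all 11226 genes. In DESeq2 5 passed, against 3325 of 11226. All 9 passed, downward, against set 2, where 2769 of 11249 genes passed in either direction, with a median of -0.52. Of the 9, 8 were lower at 80 dyne/cm2, with a median of -0.27, and none passed. At an unadjusted p under 0.05, 2 of 9 counted there, against 26.1% of all genes, and 0 passed in DESeq2. MKI67 was not analysed here.

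The p53 targets did not move as 1 group. MDM4, the partner of MDM2 in restraining p53, did not pass at 2 (0.27, edgeR adjusted p = 0.103) or at 80 dyne/cm2 (-0.36, edgeR adjusted p = 0.0517). Against the other set its log2 fold change was -0.16 at 2 and 0.06 at 80 dyne/cm2, so that both signs turned. Of 31 other p53 targets listed, 24 were matched by symbol and 22 were tested. At 2 dyne/cm2, 7 of the 22 rose (13.4% of all genes) and 6 fell (12.4%), with a median log2 fold change of 0.08. None passed at 80 (3 at an unadjusted p under 0.05, against 26.1% of all genes, and 1 in DESeq2). PMAIP1, which encodes the cell death protein NOXA, was the only one called, with a log2 fold change of -1.34 (edgeR adjusted p = 0.0202) from 38.2 ± 23.4 CPM in set 1 to 13.5 ± 3.09 CPM at 2. The others were named after their values were seen. Those that rose were SESN2, RRM2B, BBC3, XPC, AEN, CCNG1 and ZMAT3, between 0.38 and 0.80 on the log2 scale, among them genes of DNA repair (XPC) and nucleotide supply (RRM2B). Besides PMAIP1, those that fell were DRAM1, GDF15, TIGAR, PLK2 and PLK3, between -0.95 and -0.58. Against set 2, where 2769 of 11249 genes passed in either direction, 4 of the 22 rose (XPC, AEN, CCNG1 and SESN2) and 4 fell (PMAIP1, DRAM1, TIGAR and PLK2).

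GADD45G, the third gene of its family, ran opposite to GADD45B at 2 dyne/cm2. At 80, GADD45B did not pass (-0.16, edgeR adjusted p = 0.617). GADD45G measured 3.67 ± 1.16 CPM at 2 dyne/cm2 and 6.90 ± 3.14 CPM in set 1, a log2 fold change of -0.86 (edgeR adjusted p = 0.0214). At 80 dyne/cm2 it measured 15.1 ± 9.38 CPM against 5.94 ± 1.81 CPM in set 2, and it was called with a log2 fold change of 1.22 (edgeR adjusted p = 0.0130). Its responses differed by -2.09 (edgeR adjusted p = 0.000593), whereas those of GADD45B differed by 1.396 (edgeR adjusted p = 0.00430). Against the other set the change of GADD45G was -0.70 at 2 (edgeR adjusted p = 0.0254) and 1.04 at 80 dyne/cm2 (edgeR adjusted p = 0.0872). In that fit at 80, 26 of 11128 genes passed. The 7 stress kinases tested with it did not pass in either comparison (1 of them at an unadjusted p under 0.05 at 2 and 1 at 80).

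A list of 14 tested regulators of CDK inhibitors and D-type cyclins held transcriptional regulators and GJA4, which is not one. At 2 dyne/cm2, 2 rose, GJA4 among them, and 4 fell, against 13.4% and 12.4% of all genes. At 80, 1 rose and 1 fell, against 4.36% and 4.04%. KLF2 dropped from 143.7 ± 31.0 CPM in set 1 to 7.83 ± 4.69 CPM at 2 (log2 fold change -4.35, edgeR adjusted p = 0.00906) and rose at 80 dyne/cm2 by 0.44 (edgeR adjusted p = 0.0428). KLF4 dropped from 216.0 ± 43.3 to 36.0 ± 12.8 CPM (-2.62, edgeR adjusted p = 0.00924) and did not pass at 80 (0.32, edgeR adjusted p = 0.109). GJA4, which encodes the gap junction protein connexin 37, known to act on CDKN1B in arterial ECs, measured 85.6 ± 46.9 CPM at 2 and 14.6 ± 2.48 CPM in set 1, and was called with a log2 fold change of 2.41 (edgeR adjusted p = 0.0147). In set 2, however, GJA4 measured 93.9 ± 63.0 CPM and at 80 dyne/cm2 77.2 ± 65.3 CPM, so that against set 2 the change at 2 was 0.02 (edgeR adjusted p = 0.989). Both GJA4 and CDKN1B had their lowest mean in set 1, and CDKN1B was higher at 2 than in either set.

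**Figure D4:**
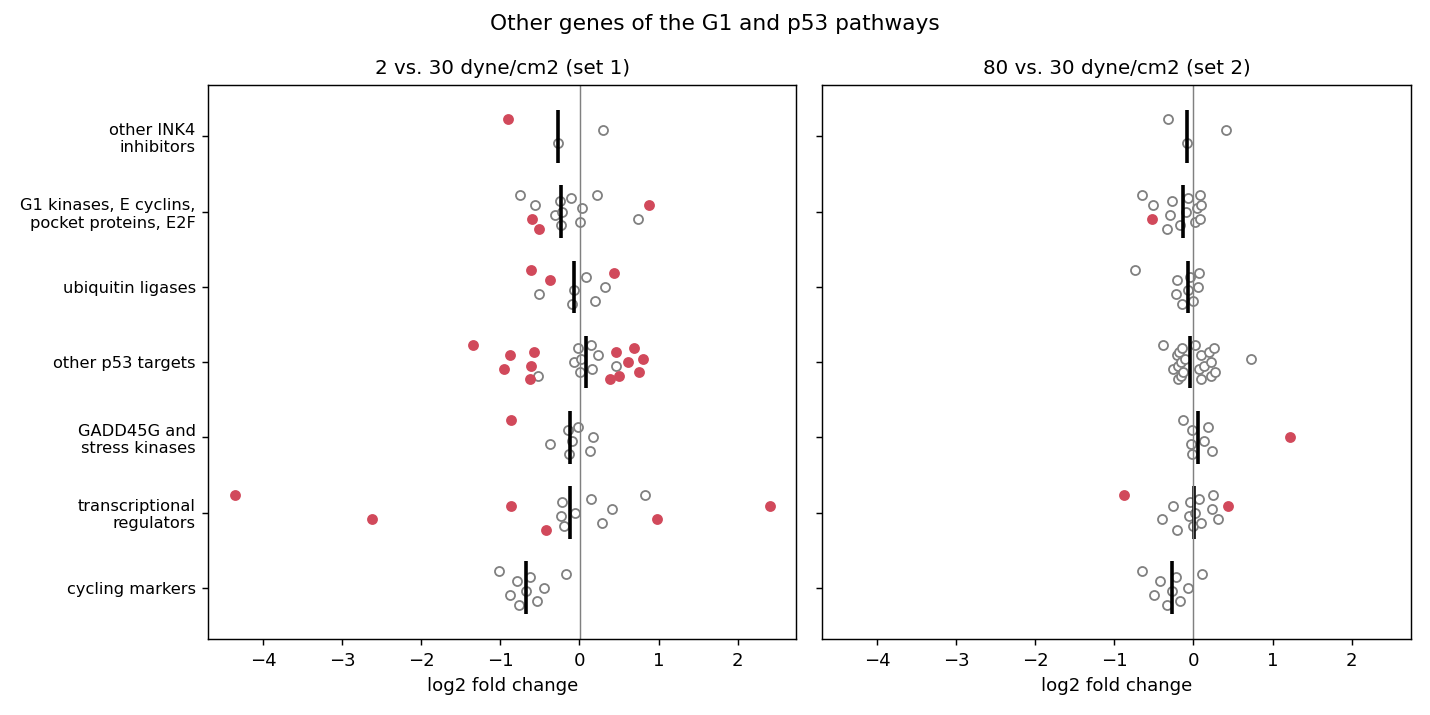
Log2 fold change of other genes of the G1 and p53 pathways at 2 and at 80 dyne/cm2. Each point is 1 gene, filled where the edgeR adjusted p was under 0.05, vertical spread within a list only separates points, and thick bars are list medians. All 9 cycling markers lie below 0 at 2 dyne/cm2 without passing, and the other p53 targets lie on both sides of 0.

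The genes whose log2 CPM ran most closely with CDKN1B over the 12 libraries, after donor means were removed, were TMEM120B (Pearson r = 0.990), DHRS3, a retinal reductase (0.989), and ZFP69B (0.987). DHRS3 ranged from 148.3 to 215.2 CPM at 2 dyne/cm2, 1.11 to 23.5 CPM in set 1, 8.39 to 30.1 CPM in set 2 and 2.63 to 13.6 CPM at 80 dyne/cm2, highest at 2 as CDKN1B was but on a wider scale. TMEM120B moved less, from 9.57 ± 0.80 CPM in set 1 to 13.5 ± 0.79 CPM at 2. For GADD45B they were GASK1B (0.994), ENTPD3 (0.971), an ectonucleotidase, and RASGRP1 (0.968), a Ras activator. ENTPD3 measured 439.4 ± 38.0 CPM at 2 against 154.0 ± 30.8 CPM in set 1. These r are the highest among all tested genes with a symbol, and the 12 points share their conditions.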

How the data were processed

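The table analysed holds the raw read counts that the authors deposited for 21153 genes in 12 libraries. The authors mapped 100 nt single-end reads to Sscrofa11.1 with STAR, discarded multi-mapping reads and counted over merged exons of protein-coding isoforms with featureCounts. Symbols came from an Ensembl table (14572 matched), positions from RefSeq Sscrofa11.1 by symbol. Genes reaching 1 CPM in 3 or more libraries of a comparison were fitted with edgeR 4.0.16 in R 4.3.3 (TMM, quasi-likelihood test, donor as a term, Benjamini-Hochberg adjustment). The study's filter of RPKM was replaced by CPM because lengths were not used. Same-numbered cultures come from 1 donor, and their deviations from group means correlated at r = 0.625 to 0.867 (18 pairs, 11568 genes), against -0.552 to -0.176 for the others. The difference between responses was a contrast over 12 libraries. SE is the log2 fold change divided by the square root of F. The fit was tested on simulated counts. The genes named are the 10 chosen, list genes called in either comparison, 10 genes always given (1 of them, and its list, not reported here), and for each called gene the 3 most correlated. The 10 genes and the lists were chosen with earlier results of these data known. DESeq2 1.42.0, other filters, controls and left-out libraries were alternatives.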

Additional observations from a re-analysis of the deposited data

Results flagged for a closer look

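In 8 of the 10 genes the response at 2 dyne/cm2 differed from that at 80 dyne/cm2 in a test of the difference itself, given here on the log2 scale as the first minus the second. It was 1.86 for CDKN1B, 1.85 for CDKN1C, 1.396 for GADD45B, 0.89 for MDM2 and 0.40 for CDKN2B, and -0.57 for CCND2, -0.59 for CCND3 and -1.13 for CCND1. With the controls exchanged between the responses, CDKN1B (0.80), MDM2 (0.57) and CCND3 (-0.68) still passed, CDKN1C (0.19), GADD45B (0.66) and CCND2 (-0.26) did not, and CDKN2B and CCND1 turned sign. No group had the 4 samples needed to look for outlying libraries.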

How the results depend on the processing

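With 3 donors and no further replicates, p-values rest on few degrees of freedom, and CDKN1C, at 14 to 97 reads per library, is limited by counting. Relative log expression normalisation left the direction and the call of each gene as they were, and a minimum of 10 counts in every library did so for the genes tested in both fits. Of the 10 genes, 2 were called at 2 dyne/cm2, 0 at 80, 0 between the sets at 30 and 8 for the difference between the responses. At 2 the count was 3, with CDKN1C added, without a filter, with at least 10 counts in every library, with dispersions from 12 libraries and with both sets as control, 6 at the adjusted p alone, 1 in a test against a 1.5-fold change, 0 with the other set as control and 0 to 2 with a donor or library left out. At 80 it was 2 at the adjusted p alone. In DESeq2 the count was 2 at 2 dyne/cm2, 0 at 80 and 10 for the difference. For the difference it was 2 without the donor block (no replicate block; CDKN1B and MDM2), 4 with the other set as each control (an alternative chosen after seeing the data, like the direct contrast of 2 and 80 dyne/cm2), and 1 to 6 with a donor or library left out. Without the donor block, CDKN1B (log2 1.45, edgeR adjusted p = 0.0193) and GADD45B (1.28, edgeR adjusted p = 0.0299) were still called at 2, CCND1, CCND2, CCND3 and MDM2 no longer passed there, and no gene passed at 80. Of the other p53 targets, 4 rose and 1 fell at 2 without it. Leaving out 1 library without the block assumes that a lone sample varies like the others.

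Signs turned as follows, and the cause was not tested. With the other set as control, the log2 fold change at 2 was 0.24 for CDKN1A, -0.10 for CDKN2B and 0.022 for CCND1, and at 80 it was 0.09 for CDKN1B, 0.21 for CDKN2B, -0.38 for CCND1 and 0.20 for GADD45B. With both sets as control it was 0.006 for CDKN1A at 2, and at 80 0.094 for CDKN1C, 0.03 for CDKN2B, -0.014 for CCND1 and 0.034 for GADD45B. The difference between the responses, with the other set as each control, was 0.20 for CDKN1A, -0.30 for CDKN2B and 0.39 for CCND1. With donors or libraries left out, the log2 fold change of CDKN1A at 2 ranged from -0.347 to 0.043, those at 80 from -0.49 to 0.14 for GADD45B, -0.30 to 0.006 for CDKN2B and -0.63 to 0.15 for CDKN1C, and those between the sets at 30 from -0.081 to 0.134 for CCND3, -0.273 to 0.058 for GADD45A, 0 to 0.32 for MDM2 and -0.29 to 0.006 for CCND2.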
